A study of Homo sapiens with 6 samples.

Results

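The clustered protocadherin genes on chromosome 5 are a family of cell surface adhesion genes that lie side by side in the PCDHA, PCDHB and PCDHG clusters. Protein-coding genes of the GENCODE annotation of hg19 whose symbol is PCDHA, PCDHB or PCDHG followed by a letter or number were taken as members. This gave 53 of 20098 protein-coding genes, with 15 in PCDHA, 16 in PCDHB and 22 in PCDHG. A region called as enriched for a histone mark was assigned to a member when it came within 1 kb, upstream or downstream, of an annotated transcription start site (TSS) of that gene. The members have 118 annotated TSSs, and the 3 clusters with the gaps between them cover 727 kb of hg19 (chr5:140165721-140892544).

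The question was how H3K27ac and H3K4me3 at these genes compared between control and DLEU1-depleted cells. HSC3, an established oral squamous cell carcinoma (OSCC) line, was transfected with a control siRNA (siCONT) or with an siRNA against the long noncoding RNA DLEU1 (siDLEU1, the one the study calls siDLEU1-2). Chromatin was immunoprecipitated 72 h later with an antibody against H3K27ac, the acetylation found at active promoters and enhancers, or against H3K4me3, the trimethylation found at promoters. There was 1 library for each siRNA and mark, so differences rest on single libraries and carry no p-value. DLEU1 RNA itself was not measured in these libraries, and 2 input samples were not analysed here.

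Clustered protocadherins are single-pass membrane proteins that bind copies of themselves on neighbouring cells. They are best known from the nervous system, where each neuron switches on a few of the alternative promoters and so displays its own combination of isoforms. In PCDHA and PCDHG, every variable exon has its own promoter and is spliced to 3 shared constant exons that encode a common cytoplasmic end, whereas PCDHB genes consist of a variable exon alone. The last genes of PCDHA and PCDHG, named PCDHAC and PCDHGC, are the C-type isoforms, which are regulated apart from the alternate isoforms. Most of these promoters share a short sequence element with the core CGCT, and CTCF binds at or near it, and promoters that are not in use carry DNA methylation.

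Promoter sequences are shown first, because 8 of the 53 members had a region of either mark in any list and 2 of these, PCDHGB4 and PCDHGB5, are much alike in sequence. Each line holds the 150 bases before the first annotated TSS of the gene, 5′ to 3′ on the + strand, read from GRCh37, the same build as hg19. Capitals mark the core CGCT on either strand, which reads CGCT or AGCG here. PCDHGC3, PCDHGB4 and PCDHB2 had regions of both marks with both siRNAs, PCDHGB5, PCDHB14 and PCDHGC5 had regions in 1 or 2 lists, and PCDHGA7, the gene before PCDHGB4, is shown as an unmarked member.
PCDHGC3, chr5:140855364-140855513: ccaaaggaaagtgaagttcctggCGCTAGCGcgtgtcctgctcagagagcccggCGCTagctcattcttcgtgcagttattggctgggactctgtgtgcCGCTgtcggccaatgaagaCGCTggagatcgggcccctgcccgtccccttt
PCDHGB4, chr5:140767115-140767264: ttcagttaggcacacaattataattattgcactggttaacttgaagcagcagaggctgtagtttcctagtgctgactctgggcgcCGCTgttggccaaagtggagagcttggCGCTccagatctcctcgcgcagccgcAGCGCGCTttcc
PCDHGB5, chr5:140777364-140777513: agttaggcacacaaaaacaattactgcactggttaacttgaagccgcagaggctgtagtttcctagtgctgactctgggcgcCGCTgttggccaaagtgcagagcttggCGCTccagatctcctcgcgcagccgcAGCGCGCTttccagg
PCDHB2, chr5:140474041-140474190: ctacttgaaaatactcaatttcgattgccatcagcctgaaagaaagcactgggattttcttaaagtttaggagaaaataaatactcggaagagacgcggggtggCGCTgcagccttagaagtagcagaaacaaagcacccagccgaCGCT
PCDHB14, chr5:140602765-140602914: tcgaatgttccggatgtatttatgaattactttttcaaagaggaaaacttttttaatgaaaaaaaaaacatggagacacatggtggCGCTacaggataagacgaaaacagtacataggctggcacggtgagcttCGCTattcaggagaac
PCDHGC5, chr5:140868498-140868647: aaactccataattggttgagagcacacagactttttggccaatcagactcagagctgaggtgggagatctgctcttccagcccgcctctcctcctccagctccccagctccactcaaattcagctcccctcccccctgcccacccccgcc
PCDHGA7, chr5:140762156-140762305: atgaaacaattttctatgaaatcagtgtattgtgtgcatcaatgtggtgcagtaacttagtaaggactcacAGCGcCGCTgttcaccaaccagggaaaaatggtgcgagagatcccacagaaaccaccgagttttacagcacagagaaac
The PCDHB2 stretch also lies in an exon of the antisense lncRNA PCDHB1-AS1. PCDHGC3 held 5 copies of the core and PCDHGC5 none, although both carried H3K4me3. PCDHGB4 and PCDHGB5 were nearly the same over much of their length. Over 250 bases before the TSS their alignment was 76.6% identical, the highest of 1378 pairs of members, against a median of 50.5%.

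The core CGCT on the gene's own strand was sought in the 250 bases before the first annotated TSS. It was found at 48 of 53 members (90.6%) and at 52.9% of all protein-coding genes. On either strand the shares were 92.5% and 71%. The core alone is thus common among promoters, and its presence at a member does not show the element. The members without the core on their own strand in this window were PCDHA9, PCDHA11, PCDHB8, PCDHGA12 and PCDHGC5. At PCDHA9 and PCDHA11 the canonical TSS lies more than 250 bases further downstream, at chr5:140227967 and chr5:140248542. The 250 bases before it were not searched at these genes. The core motif of CTCF, searched on both strands, was found in the same window of 1 member, PCDHB9, or 1.89%, against 2.31% of all genes. A site that departs from the motif searched was not counted, and binding of CTCF was not measured in these libraries. The shares with the motif therefore do not show whether members hold more or fewer CTCF sites than other genes. The 250-base windows of the members were poor in GC, with a median of 37.6% against 59.6% for all genes. They held a median of 5 CpGs against 14. Within 1 kb of the first annotated TSS on either side, the 8 members with a region had a median of 48 CpGs, with a range of 28 to 94. The 45 without had a median of 57, with a range of 14 to 126. The CpG ranges of marked and unmarked members therefore overlapped. The lowest count, 14, was that of PCDHA11, whose window lay around a TSS upstream of its canonical one, as did that of PCDHGA8.

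The libraries held 19705 and 17672 H3K27ac regions and 58582 and 56943 H3K4me3 regions with siCONT and siDLEU1. Depth recovered from the peak statistics ranged from 21.5 to 29.4 M reads a library, assuming a genome of 2.7 Gb. As a level, the coverage at the summit of a region is given as fold over even coverage, that is, over the coverage that the reads of the library would give if spread evenly over the genome. The lowest level called as a region was 8.07 to 9.91 in the 4 lists, and the median was 50.4 and 35.5 for H3K27ac and 22.3 and 26.7 for H3K4me3 with siCONT and siDLEU1. Rank is given as the percentile of a region's fold enrichment within its own list, from 0 for no region to 100 for the strongest. Squamous epithelial markers fixed for the check of the cell line, such as KRT5 and CDH1, had an H3K4me3 region at 12 of 12 genes with either siRNA and an H3K27ac region at 12 with siCONT and 11 with siDLEU1.

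Few clustered protocadherin genes carried either mark in HSC3 cells. With siCONT, 6 of 53 members (11.3%) had an H3K27ac region, against 61.5% of all protein-coding genes. They were PCDHB2, PCDHB14, PCDHGB2, PCDHGB4, PCDHGB5 and PCDHGC3. An H3K4me3 region was found with siCONT at 6 members (11.3%, against 61.2% of all genes), of which PCDHGC5 replaced PCDHGB5 in that set. Neither mark was found at 46 of 53 members (86.8%) with siCONT, against 35.6% of all genes, and at 47 (88.7%) with siDLEU1, against 37.3%.

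The 45 members with no region in any of the 4 lists comprised all 13 alternate PCDHA genes, both C-type genes of that cluster (PCDHAC1 and PCDHAC2), 14 of the 16 PCDHB genes and all 12 PCDHGA genes. PCDHGB3, PCDHGB6, PCDHGB7 and PCDHGC4 had none either. Among the subfamilies, 4 of 7 PCDHGB genes and 2 of 3 PCDHGC genes had a region in any list. PCDHGA and PCDHGB genes alternate along the same stretch of chromosome, so marked PCDHGB promoters lay between unmarked PCDHGA promoters.

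**Figure D1:**
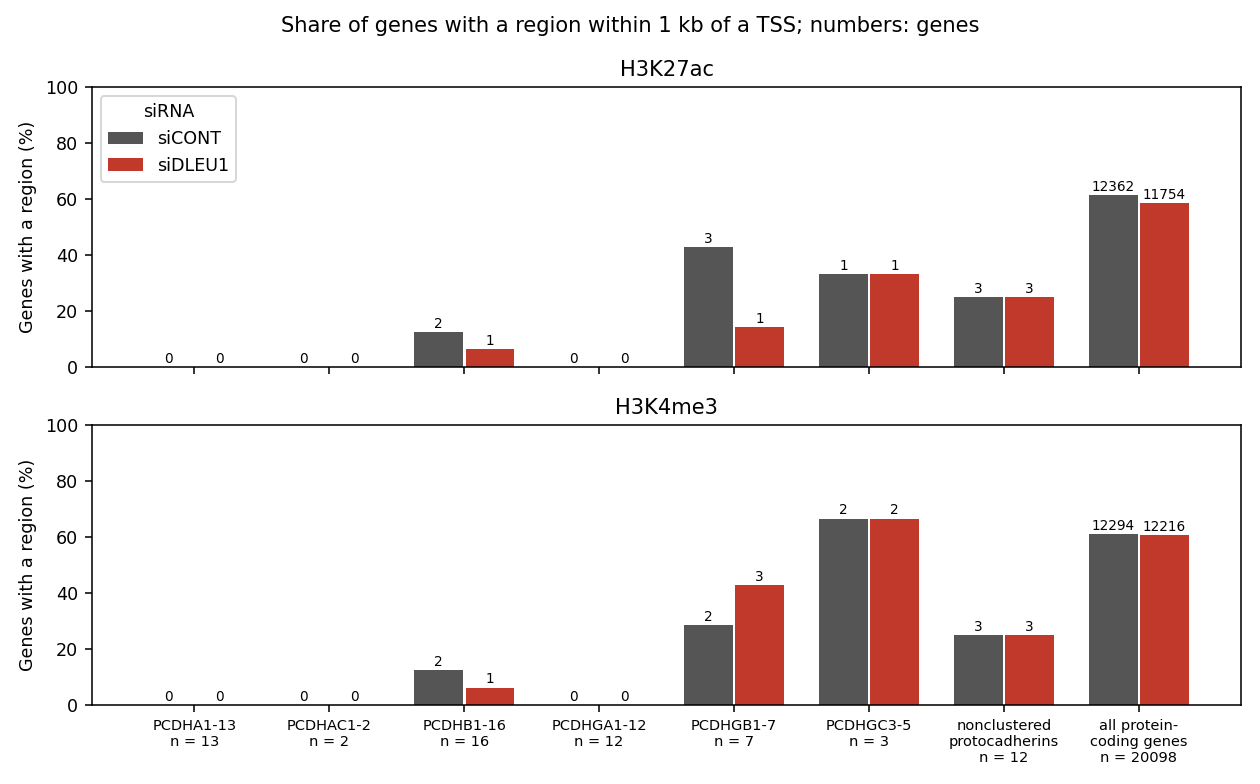
Share of genes with a region within 1 kb of a TSS (%, bars from 0) for each protocadherin subfamily, 12 nonclustered protocadherins and all protein-coding genes, with siCONT in grey and siDLEU1 in red; the number of genes stands above each bar. Bars are at 0 for PCDHA, PCDHAC and PCDHGA, and all genes stand at 61.5% and 58.5% for H3K27ac.

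The plot of shares by subfamily gives each count beside that of all genes. Its PCDHGB and PCDHGC bars rest on 7 and 3 genes.

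Within the clusters, H3K27ac was called at start sites alone, and H3K4me3 also away from them. All 6 H3K27ac regions with siCONT and all 3 with siDLEU1 were at a member's TSS, and so were 7 of 9 H3K4me3 regions with siCONT and 7 of 10 with siDLEU1. In each H3K4me3 list these 7 include a region in the last intron of PCDHG, at the start of a short transcript. Per Mb of span, H3K27ac regions numbered 21.9 in PCDHG, 10.1 in PCDHB and 0 in PCDHA with siCONT, against 7.3 over the genome. With siDLEU1 these densities were 11, 5.05 and 0, against 6.55. For H3K4me3 they were 32.9, 10.1 and 4.42 with siCONT, against 21.7 over the genome, and 32.9, 5.05 and 13.3 with siDLEU1, against 21.1. PCDHG was above the genome density in all 4 lists, and PCDHA was below it in all 4. With siCONT and siDLEU1, the PCDHG densities rest on 4 and 2 H3K27ac regions and 6 and 6 H3K4me3 regions. They lie in 182 kb that hold 22 members. Counted by gene, 18.2% and 9.09% of PCDHG members had an H3K27ac region, against 61.5% and 58.5% of all genes. For H3K4me3 the shares were 18.2% and 22.7%, against 61.2% and 60.8%.

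**Figure D2:**
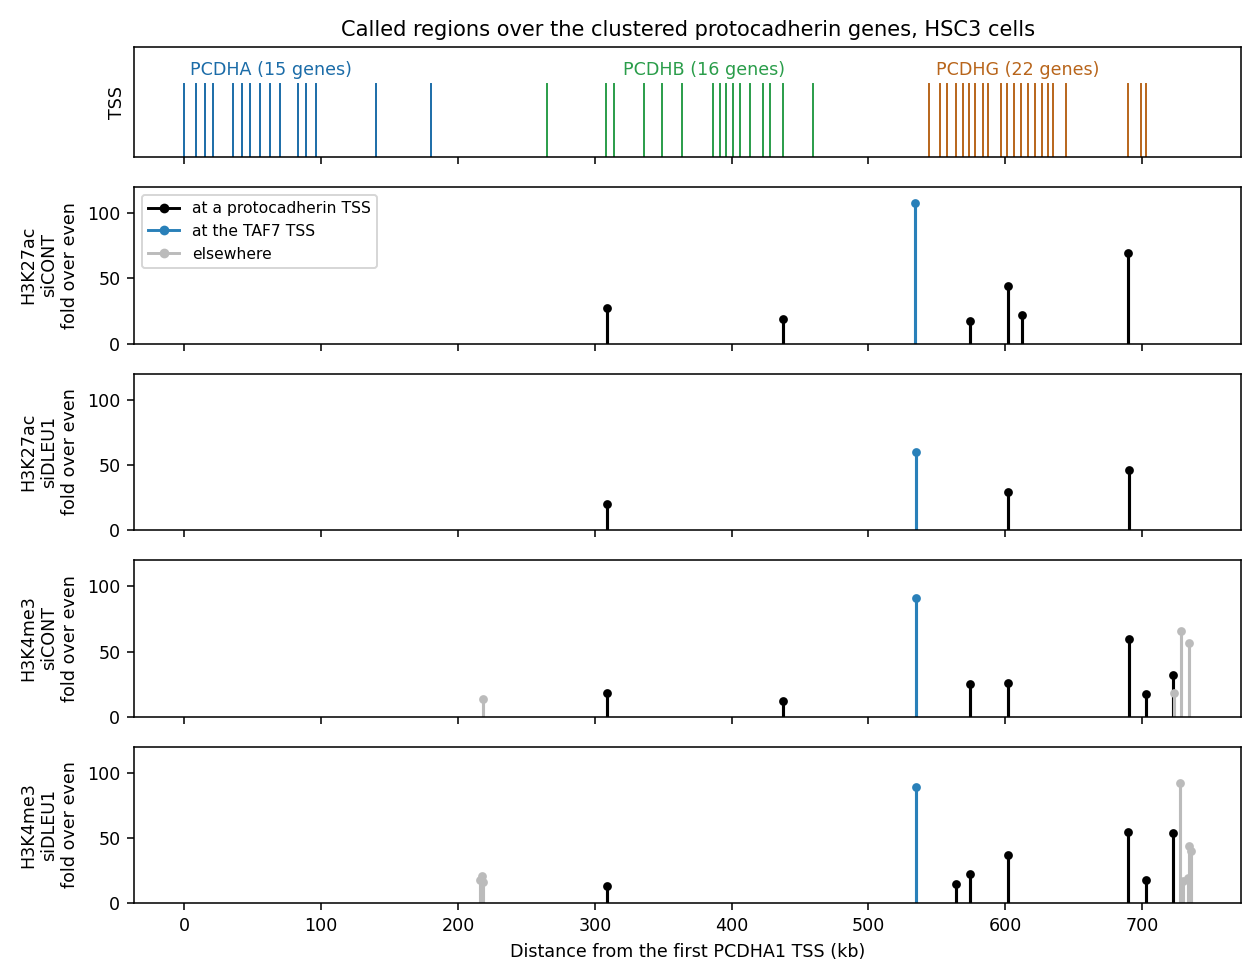
Called regions over the 3 clusters: the upper panel marks member TSSs by distance from the first TSS of PCDHA1 (kb), and the lower 4 panels give the summit coverage of each region (fold over even coverage) in each list, in black at a protocadherin TSS, blue at the TAF7 TSS and grey elsewhere. The PCDHA part has no region at a TSS, TAF7 has the tallest H3K27ac region in both H3K27ac lists, and grey H3K4me3 regions stand near the 3′ ends of PCDHA and PCDHG.

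In the map of the locus, the tall line between PCDHB and PCDHG is the promoter of TAF7, a subunit of the general transcription factor TFIID that lies between these clusters. It serves as a local reference for an active promoter. Its H3K27ac level was 108 fold over even coverage with siCONT and 60 with siDLEU1, a ratio of 0.554, and its H3K4me3 level was 90.7 and 89.1. No member reached the H3K27ac or H3K4me3 level of TAF7 in any list. SLC25A2, a mitochondrial carrier gene beside TAF7, and AC005609.1, inside PCDHA, had no region in any list. Of the 10 protein-coding genes flanking the clusters, 5 on each side, 9 and 8 had an H3K27ac region with siCONT and siDLEU1, and 9 had an H3K4me3 region with either. Some of these flanking genes share a region with the gene beside them, so the counts are of genes and not of separate regions. ZMAT2, the nearest before PCDHA, was at 101 and 60 for H3K27ac, and DIAPH1, the nearest after PCDHG, at 97.5 and 57.4.

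PCDHGC3, a C-type isoform, had the highest levels of both marks among the members. Its H3K27ac region lay at chr5:140855515-140856456 with siCONT and at chr5:140855585-140856343 with siDLEU1, over exon 1 and mainly over its coding part. The summit held 103 fragments (95% Poisson interval 84.1 to 125) with siCONT and 88 (70.6 to 108) with siDLEU1, which are 69.2 and 45.9 fold over even coverage. These intervals, like those below, cover counting error only. The region was thus lower in coverage with siDLEU1, whereas its percentile rank was higher, at 62.5 and 82.3. Rank divides by local background, which was 1.88 times the even coverage with siCONT and 1 with siDLEU1. Ranked by fragments instead, a choice made after its values were seen, PCDHGC3 was at percentile 68.4 and 69.8.

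The H3K4me3 region of PCDHGC3 spanned chr5:140855535-140856535 with siCONT and chr5:140855464-140856446 with siDLEU1, or 1001 and 983 bp. Its level was 59.8 and 54.6 fold over even coverage, from 126 and 84 fragments. Its rank was 87.5 in both lists by fold enrichment, and 90.3 and 81.6 by fragments. The local background was again 1.88 with siCONT and 1 with siDLEU1. Control depth recovered from the lists was the same for both marks, 7.18 M reads with siCONT and 6.73 M with siDLEU1. The marks may thus share a control, and the repeated background is no separate observation.

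PCDHGB4, an alternate PCDHG isoform, had the next highest H3K27ac level among the members. Its H3K27ac region covered 621 bp (chr5:140767221-140767841) with siCONT and 430 bp (chr5:140767236-140767665) with siDLEU1. The levels were 44.4 and 29.2 fold over even coverage, from 66 (51 to 84) and 56 (42.3 to 72.7) fragments. For H3K4me3 the order was the other way, with 25.6 for siCONT and 37.1 for siDLEU1, from 54 and 57 fragments. By rank, H3K27ac was at percentile 50.9 and 37.3 and H3K4me3 at percentile 52.3 and 67.1. The Poisson intervals of the levels with siCONT and siDLEU1 overlapped for both marks.

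PCDHGB5, the next PCDHGB gene along the chromosome, had a weak H3K27ac region with siCONT alone. This region (chr5:140777753-140777994) was at percentile 1.27 and held 33 fragments, with a local background 4.02 times the even coverage, the highest at any member. All of its 50-base words (100%) were also present elsewhere in the genome, so that no 50-base stretch of it is unique. At PCDHGB4, 71.5% and 57.2% of the words in its H3K27ac regions and 73.5% and 64.5% of those in its H3K4me3 regions were present elsewhere. In the other 6 members with a region, 0% of the words in TSS regions were. Some members without a region also held shared sequence. Within 1 kb of the first TSS, 38.7% of words at PCDHB8 and PCDHB13 and 32.4% at PCDHA7 were present elsewhere. At PCDHGB4 and PCDHGB5 the share in this window was 24.4%, and the median of the 45 members without a region was 0.615%. Reads of shared sequence at PCDHGB4 and PCDHGB5 cannot be told apart, and how the authors placed such reads is not given in the sources used here. The absence of a region at members such as PCDHB8 and PCDHB13 carries the same limit.

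PCDHB2 was the only member outside PCDHG with regions in all 4 lists. Its H3K27ac region (chr5:140474260-140474627 with siCONT and chr5:140474299-140474693 with siDLEU1) was at 26.9 and 20.3 fold over even coverage, from 40 (28.6 to 54.5) and 39 (27.7 to 53.3) fragments. Its rank was 21.1 and 23.3. The H3K4me3 level was 18 and 13, from 38 and 20 fragments, and its rank was 30.5 and 12.1. The change in H3K4me3 rank was larger by fragments, at 37.3 and 5.23. PCDHB2 lay in the lower part of each list.

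PCDHB14 had both marks with siCONT and neither with siDLEU1. Its H3K27ac region (chr5:140602927-140603185) held 28 fragments at 18.8 fold over even coverage, and its H3K4me3 region (chr5:140602999-140603345) held 26 fragments at 12.3. Both were weak, at percentiles 7.35 and 23.1 of their lists. The same regions also lie at the TSS of a protein-coding gene known only as ENSG00000279983, and the marks of the pair cannot be told apart.

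PCDHGB2 had H3K4me3 with both siRNAs and H3K27ac with siCONT alone. Its H3K27ac region (chr5:140739640-140739852) held 26 fragments at 17.5 fold over even coverage and stood at percentile 4.95. The H3K4me3 level was 24.7 with siCONT and 22.8 with siDLEU1, from 52 and 35 fragments, and its rank was 50 and 31.8. H3K4me3 at PCDHGB2 was therefore called in both lists, and the Poisson intervals of the levels, 18.4 to 32.4 and 15.9 to 31.7, overlapped.

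PCDHGC5, the last C-type gene, had H3K4me3 with both siRNAs and H3K27ac with neither. The H3K4me3 level was 17.6 in both lists, from 37 and 27 fragments, and its rank was 39.8 and 26. Unlike at the other members, the region reached well upstream of the TSS, by 345 bp with siCONT (chr5:140868303-140869134) and 295 bp with siDLEU1 (chr5:140868353-140869094). PCDHGB1 had only an H3K4me3 region, with siDLEU1 alone (chr5:140729720-140729947), of 23 fragments at percentile 5.22. The TSS of a lncRNA, ENSG00000280026, lies in the same window.

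**Figure D3:**
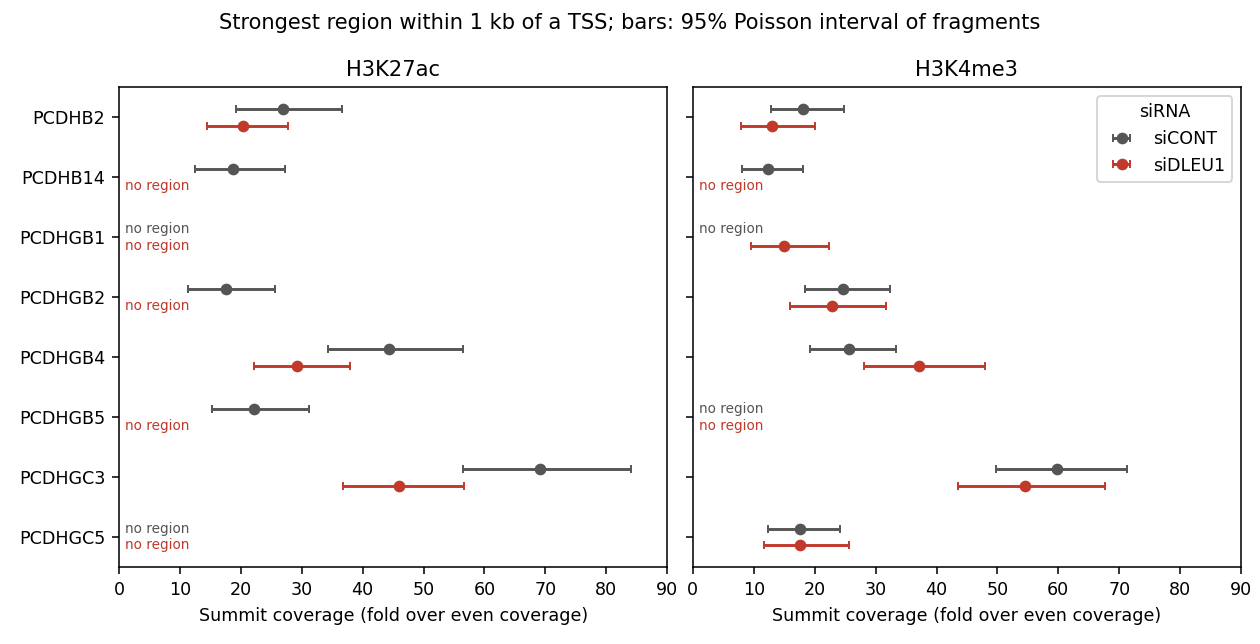
Summit coverage (fold over even coverage) of the strongest region within 1 kb of a TSS at the 8 members with a region in any list, for H3K27ac (left) and H3K4me3 (right), with siCONT in grey and siDLEU1 in red; points are 1 library each and bars are 95% Poisson intervals of the fragments. PCDHGC3 stands highest in both panels, and PCDHGB4 is lower with siDLEU1 for H3K27ac and higher for H3K4me3.

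The plot of member levels shows the values given above in 1 view, with "no region" written where a list had none. A missing region means that the caller's threshold was not reached, not that the mark was absent.

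The regions lay downstream of the start site, inside exon 1. Measured from the canonical TSS, the summits of H3K27ac were at +115 to +365 bp with siCONT and at +141 to +315 bp with siDLEU1. For H3K4me3 at the TSS they were at +117 to +360 bp with siCONT, and with siDLEU1 at +148 to +221 bp except PCDHGC5 at -136 bp. The H3K27ac regions reached at most 44 bp upstream of the TSS, at PCDHGB4. Their widths were 213 to 942 bp with siCONT and 395 to 759 bp with siDLEU1, against a median of 750 and 608 bp for all regions of those lists.

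**Figure D4:**
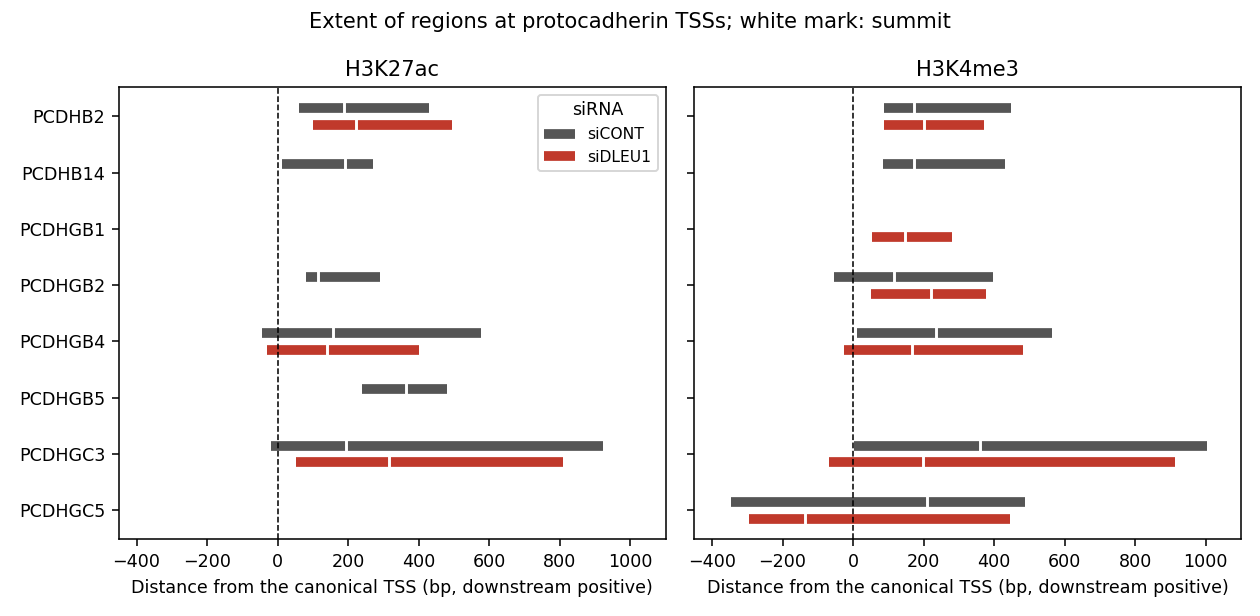
Extent of each region at a member's TSS, as distance from the canonical TSS (bp, downstream positive, dashed line at the TSS), with siCONT in grey and siDLEU1 in red and the summit as a white mark. Nearly all regions start close to the TSS and run downstream, PCDHGC3 has the widest of both marks, and PCDHGC5 is the member whose H3K4me3 region reaches 345 and 295 bp upstream.

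Away from the variable exons, H3K4me3 was found in the last intron of both PCDHA and PCDHG, between the last pair of the shared constant exons. In PCDHG, a region at chr5:140887756-140888703 with siCONT held 67 fragments (51.9 to 85.1) at 31.8 fold over even coverage, and a smaller one followed at chr5:140888820-140889342 with 39 fragments. With siDLEU1, 1 region at chr5:140887689-140889165 held 83 fragments (66.1 to 103) at a level of 54. This region is assigned to PCDHGC3 through the start of a short annotated transcript of that gene. In PCDHA, 1 region with siCONT (chr5:140383992-140384376) held 28 fragments at 13.3, and 3 with siDLEU1 held 28, 32 and 25 fragments at 18.2, 20.8 and 16.3. The 3 lay at chr5:140381486-140381781, chr5:140383378-140383731 and chr5:140384105-140384326. The PCDHA regions are annotated near no member's TSS, and none of these intronic regions had an H3K27ac region beside it in either list.

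In the comparison of the siRNAs, 3 of the 6 members with an H3K27ac region in siCONT had none in siDLEU1, where 5.14% of all genes with a siCONT region had none. They were PCDHB14, PCDHGB2 and PCDHGB5. No member had an H3K27ac region in siDLEU1 alone, against 0.362% of all genes without one in siCONT, so that 3 of 53 members (5.66%) were marked with siDLEU1, against 58.5% of all genes. The members concerned were weak in siCONT: 4 of the 6 lay below the 25th percentile, and 3 of these 4 had no region in siDLEU1, against 53.9% of all 879 genes with so weak a region. That background was chosen after the values were seen. When the siCONT list was reduced to its 17672 strongest regions, the number in siDLEU1, PCDHB14, PCDHGB2 and PCDHGB5 had no region in siCONT either, and 0 members had one in siCONT alone. Their siCONT percentiles by fold enrichment, 7.35, 4.95 and 1.27, fixed that outcome, so it is no separate observation. By fragments their siCONT percentiles were higher, at 12.3, 9.79 and 17.9.

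For H3K4me3, 1 of 6 members with a region in siCONT, PCDHB14, had none in siDLEU1, where 3.07% of all such genes had none. PCDHGB1 was the 1 member of 47 with a region in siDLEU1 alone, where 3.83% of all genes without one in siCONT had one. With siDLEU1, 6 of 53 members (11.3%) had an H3K4me3 region, against 60.8% of all genes. The 5 members with an H3K4me3 region in both lists were PCDHB2, PCDHGB2, PCDHGB4, PCDHGC3 and PCDHGC5. Of the members with H3K4me3, 1 of 6 lacked H3K27ac with siCONT (16.7%, against 4.69% of all genes with H3K4me3) and 3 of 6 with siDLEU1 (50%, against 6.93%).

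No member with an H3K27ac region in siCONT was lower or higher by 20 percentile points or more with siDLEU1, whereas 18.8% of all such genes were lower and 6.96% higher by that much. A member that started below the 20th percentile could not fall that far. The median change over the 6 members was -3.11 points, against -4.32 over all genes, with 4 lower and 2 higher. With equal numbers of regions in the lists the median was 11.2 points, over the 3 members still called with siCONT. For H3K4me3, 1 member of 6, PCDHB14, was lower by 20 points or more and none was higher, against 8.51% and 7.15% of all genes. The median H3K4me3 change over the 6 members was -16 points, against 0.371 over all genes, with 4 lower and 2 higher. PCDHGB4 was among the higher ones by 14.8 points. When regions were held to a −log10 q of at least 10, only PCDHGC3 kept a siCONT region, and its change was 2.26 points.

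Where a region was called in both lists, coverage at the summit was compared as the ratio of fold over even coverage, siDLEU1 over siCONT, a measure added after the data were seen. For H3K27ac the ratio was 0.663 at PCDHGC3 (95% counting interval 0.493 to 0.89), 0.659 at PCDHGB4 (0.453 to 0.955) and 0.757 at PCDHB2 (0.474 to 1.21). The median ratio of the 11726 genes called in both lists was 0.616, with 0.468 to 0.837 from the 5th to the 95th percentile, and 98.5% of genes were under 1. The 3 members stood at percentiles 68.5, 66.8 and 88.9 of these ratios, and each counting interval included the median of all genes. The intervals of PCDHGC3 and PCDHGB4 lay below 1, whereas that of PCDHB2 included 1.

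The H3K4me3 ratios lay mostly below those of other genes. The median over 11917 genes was 1.26, with 0.78 to 1.93 from the 5th to the 95th percentile, and 19.2% were under 1. PCDHGB4 was at 1.45 (0.979 to 2.14), PCDHGC5 at 1 (0.585 to 1.69), PCDHGB2 at 0.922 (0.583 to 1.44), PCDHGC3 at 0.913 (0.685 to 1.21) and PCDHB2 at 0.721 (0.398 to 1.27). These stood at percentiles 72.6, 19.1, 13.2, 12.4 and 3.24 of all genes. The interval of PCDHGC3 lay below the median of all genes, those of the other 4 included it, and all 5 included 1. No replicate shows how far such ratios vary between libraries of the same siRNA.

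**Figure D5:**
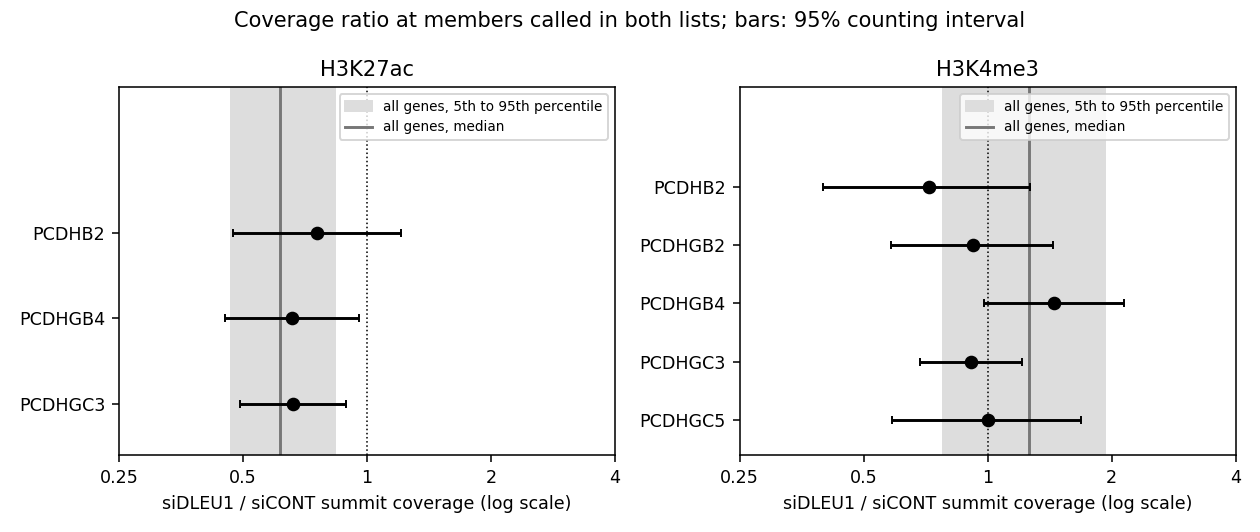
Ratio of summit coverage, siDLEU1 over siCONT (log axis), at members with a region in both lists; points are the ratio of 1 library each and bars its 95% counting interval, with the 5th to 95th percentile of all genes shaded and their median as a grey line. The 3 H3K27ac points lie at 0.659 to 0.757, above the median of 0.616, and 4 of the 5 H3K4me3 points lie below the median of 1.26.

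In the plot of ratios, the shaded band differs between the marks, being below 1 for H3K27ac and on both sides of 1 for H3K4me3. The members are read against that band and not against 1.

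Over the spans of the 3 clusters, H3K27ac regions covered 2645 bp with siCONT and 1584 bp with siDLEU1, a ratio of 0.599, while the genome went from 17.3 to 12.4 Mb. The mean fold enrichment of these regions was 9.12 over 6 regions with siCONT and 9.76 over 3 with siDLEU1. Fold enrichment is not comparable between lists, and these means, like those of H3K4me3 below, are of different sets of regions. At the 3 members called in both H3K27ac lists it was lower with siDLEU1. It was 18.3 and 14.7 at PCDHGC3, 14.9 and 8.11 at PCDHGB4, and 7.42 and 6.49 at PCDHB2. H3K4me3 regions covered 5403 and 5421 bp, while the genome went from 45.2 to 41.4 Mb, with a mean fold enrichment of 7.4 and 7.71. By overlap of at least 1 bp, 3 of the 6 H3K27ac regions with siCONT were met by one with siDLEU1 (50%, Wilson interval 18.8 to 81.2%), against 77.8% of all siCONT regions. All 3 with siDLEU1 were met by one with siCONT, against 98.8%. For H3K4me3, 8 of 9 regions with siCONT (88.9%, 56.5 to 98%) and 7 of 10 with siDLEU1 (70%, 39.7 to 89.2%) were met, against 76.4% and 78.8% of all regions.

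Nonclustered protocadherins, relatives encoded by separate genes without shared exons, were also marked at few members. Of 12, 3 had regions of both marks with both siRNAs, namely PCDH1, PCDH7 and PCDH12. PCDH12 had the highest siCONT ranks, at 68.1 for H3K27ac and 91.5 for H3K4me3, and was at 73.4 and 97.6 with siDLEU1. PCDH1 had the largest decrease in H3K27ac rank, from 54.3 to 38.8, and the largest increase in H3K4me3 rank, from 33.8 to 51.8. The other 9, among them PCDH8, PCDH10 and PCDH17, had no region in any list.

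Genes for CTCF and cohesin, which bring protocadherin promoters and their distant enhancers together, were marked throughout. All 11 had regions of both marks with both siRNAs, with a median H3K27ac change of -9.3 points and H3K4me3 change of -2.21 points. Of these, 3 were lower in H3K27ac by 20 points or more and none was higher, against 18.8% and 6.96% of all genes. NIPBL, the cohesin loader, had the highest rank (H3K27ac 99.2 and 92.3), STAG1 the largest decrease (72.6 to 46.4) and WAPL, the cohesin release factor, the largest increase (82.3 to 96.4). CTCF, named after its values were seen, was at 88.6 and 78.5.

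Genes that silence protocadherin promoters, such as DNA methyltransferases, SMCHD1 and SETDB1, were all marked as well, 10 of 10 for both marks and siRNAs. Their median change was 3.26 points for H3K27ac and 2.14 points for H3K4me3. In H3K27ac, 3 of the 10 were lower and 1 higher by 20 points or more, against 18.8% and 6.96% of all genes. TRIM28, a corepressor that recruits SETDB1, had the highest H3K27ac rank (91 and 71) and EHMT2, an H3K9 methyltransferase, the largest increase (61.8 to 93.5). Of 17 genes for intracellular partners and proteases of protocadherins, 14 had regions of both marks with both siRNAs, with a median change of -11.2 points for H3K27ac and 1.21 for H3K4me3. APH1A, a subunit of the protease γ-secretase, had the highest H3K27ac rank (97.7 and 82.4), PTK2, a tyrosine kinase bound by protocadherins, the largest decrease (85.7 to 61.9) and PTK2B, its relative, the largest increase (73.9 to 83.1). FYN, WASF3 and CYFIP2 had no region in any list. Over all protein-coding genes, 61.5% and 58.5% had an H3K27ac region with siCONT and siDLEU1.

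Among marker genes of other cell types, an H3K27ac region was found at 5 and 3 of 10 neuronal genes with siCONT and siDLEU1. The counts were 1 and 1 of 8 fibroblast and 1 and 1 of 8 immune cell genes, against 61.5% and 58.5% of all genes. For H3K4me3 they were 4 and 2, 2 and 2, and 2 and 2, against 61.2% and 60.8% of all genes. RBFOX3, STMN2, GAP43 and NEFM had no region in any list, and the other 6 neuronal genes had one in at least 1 list. Of these, TUBB3, a neuronal tubulin, had the highest H3K4me3 rank, at 84.3 with siCONT and 96.8 with siDLEU1, and SYT1, a synaptic vesicle protein gene, was at 72.3 and 54.4. MAP2, a dendrite protein gene, had H3K27ac alone, at 35.8 and 24.2.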

How the data were processed

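ChIP-seq of H3K27ac and H3K4me3 was examined in HSC3 cells with 1 library per siRNA and mark. The authors aligned Ion Proton reads to hg19 with bowtie2 and called peaks in each library with MACS2; settings and the handling of reads with several matches are not given in the sources used here. In the deposited lists, the fold ratio is the enrichment over local background, which is not comparable between lists, and the −log10 p and −log10 q are those of MACS2. The deposited score column, a display value, was not used. The inputs were not analysed here.

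Regions on chromosomes 1 to 22 and X were set against GENCODE 44 mapped to GRCh37, with a window of 1 kb on either side of every TSS and an overlap of at least 1 bp. Strength was the percentile rank of fold enrichment within a list. Fragments at each summit, and local background, were solved from the fold and p of each region, which matched within 0.001 for 100% of regions. Levels are fragments over those expected from even coverage, and this ratio needs no genome size. Intervals are 95% and cover counting error only. Functions were tested on simulated data. Sequence was read from GRCh37, and 50-base words of each TSS window were sought in the whole genome.

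The members and lists were chosen with earlier results of these data known. Every member with a region in any list was named. Of the other lists, the genes with the highest siCONT rank and the largest changes in H3K27ac rank were named (for the nonclustered protocadherins also H3K4me3), with genes of each list as examples. Of the neighbours, those inside the span and the nearest on either side were named. A gene that this rule names is not reported here. No p-value was computed. The member counts, median changes and span values were recomputed, each where it applied, with a minimum −log10 q of 10, windows of 3 and 5 kb, a TSS inside the region, 1 TSS per gene, regions within 1 kb stitched, equal numbers of regions, rank by −log10 p or by fragments, and an overlap of 50% of both regions. The coverage ratio, rank by fragments of single members and the background of weak regions were added after seeing the data. Tools were scipy 1.17.1, pandas 2.3.3 and numpy 2.4.6 in Python 3.11.15.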

Additional observations from a re-analysis of the deposited data

How the results depend on the processing

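With regions of −log10 q of at least 10 alone, H3K27ac remained at 2 members with siCONT (PCDHGB4 and PCDHGC3) and 1 with siDLEU1 (PCDHGC3), 1 was in siCONT alone, and the median H3K27ac change was -6.87 points. H3K4me3 was then found at 1 member with siCONT (PCDHGC3) and 2 with siDLEU1 (PCDHGB4 and PCDHGC3), with 0 in siCONT alone. The H3K4me3 change, then that of PCDHGC3 alone, turned to 2.26 points. The covered length ratio of H3K4me3 was 1.52, and 100% of siCONT regions were met by a siDLEU1 region. A window of 3 kb gave a median H3K27ac change of -4.95 points. A window of 5 kb gave H3K27ac at 10 and 5 members, with 5 in siCONT alone, and H3K4me3 at 11 and 11, since neighbouring promoters then share regions. With a TSS required inside the region, H3K27ac was at 3 and 1 members and H3K4me3 at 3 and 3. With equal numbers of regions, H3K27ac was at 3 members with siCONT and 0 in siCONT alone, the median H3K27ac change turned to 11.2 points, and 100% of siCONT regions were met. The count of 0 followed from cutting the weakest siCONT regions, among them those of PCDHB14, PCDHGB2 and PCDHGB5. Ranked by fragments, the median H3K27ac change was -9 points. Of the other 59 recomputed values, counts stayed within 1.5 times the reported count and no direction turned. No paired analysis was possible because there was 1 library per siRNA and mark, and none could be left out for the same reason.

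The weakest H3K27ac region held 13 fragments with siCONT and 19 with siDLEU1, at 8.74 and 9.91 fold over even coverage, and a promoter below these levels is listed without a region.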

Other observations

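Directly after the last shared exon of PCDHG, broad H3K4me3 lay in the gap before DIAPH1 and over its 3′ end. DIAPH1 is a formin gene on the opposite strand (chr5:140894583-140998622) whose own promoter is at the far end. With siCONT, a region at chr5:140892697-140896195 covered 3499 bp and held 139 fragments at its summit (66 fold over even coverage), and another at chr5:140898186-140901740 covered 3555 bp and held 119 (56.5). Both were wider than any region at a member's TSS. With siDLEU1 the same stretch was called as 5 pieces, of which the strongest, chr5:140892756-140895226, covered 2471 bp and held 142 fragments (92.4), and the next, chr5:140899538-140900536, covered 999 bp and held 67 (43.6). No H3K27ac region was called there in either list, and no annotated TSS lies within 1 kb of these regions.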
